A study of Mus musculus with 10 samples.

Results

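The vascular endothelial growth factor (VEGF) family was described in tongue RNA as 5 ligands (Vegfa, Vegfb, Vegfc, Vegfd and Pgf), 3 receptor tyrosine kinases (Flt1, Kdr and Flt4) and 2 co-receptors (Nrp1 and Nrp2). All 10 genes were found by symbol among the 27151 genes of the table, and all 10 were among the 17088 that passed the filter on low values. The animals, C57BL/6J mice, had all received 4NQO, a chemical carcinogen used to raise lesions in the oral epithelium. The 6 SP2509 libraries came from tongues of mice given SP2509, an inhibitor of the histone demethylase LSD1 (gene Kdm1a), and the 4 vehicle libraries from mice given vehicle. Every library thus carries the 4NQO exposure, and no unexposed tongue was analysed here. The sample titles read SP2509h, and the sources used here do not give the meaning of the h, the dose, the schedule, sex or age, or whether every library is a separate mouse. P-values therefore reflect only how far these libraries spread, and some of that may be technical.

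VEGF ligands are secreted dimers that act mainly on endothelial cells. Vegfa drives blood vessel growth and permeability through Kdr, while Flt1 binds Vegfa, Vegfb and Pgf with high affinity and acts largely as a decoy that limits signalling. Vegfc and Vegfd act through Flt4 on lymphatic vessels after proteolytic maturation. Nrp1 and Nrp2 bind particular ligand forms beside the kinases and are also receptors for class 3 semaphorins. Vegfa is induced under low oxygen by the hypoxia-inducible factors (HIF) and is made by many tissues, skeletal muscle and epithelium among them.

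The 10 genes were selected on results of this contrast, with the SP2509 against vehicle values of these same libraries known, in which Vegfa had already been reported as lower. Their differences between the groups are therefore given as a description, and nothing is supported with them. Levels are the deposited normalised reads, which are whole read counts divided by 1 size factor per library. Whole reads summed to 15748571 to 19375555 in SP2509 libraries and 9180844 to 14768955 in vehicle libraries. Mitochondrial genes took 24.0% to 32.2% of the reads in SP2509 libraries and 35.3% to 52.1% in vehicle libraries, and their part in the results was not tested. SP2509 replicates 1 and 2, and 4 and 5, were far closer to each other than other libraries of a group in genes with many reads. The median squared difference of genes with 1000 to 5000 reads was 3.49 to 3.72 times the Poisson expectation in these 2 pairs, against 11.1 to 163 times in the other 19 pairs. In genes with few reads, replicates 1 and 2 stood at 2.41 times. Replicates 4 and 5 stood at 3.52 there, above vehicle replicates 3 and 4 (2.61) and SP2509 replicates 1 and 3 (2.86). Each pair was averaged to 1 unit in means and SDs, so that SP2509 has n = 4 units and vehicle n = 4 libraries. In a limma fit over the 10 libraries, 846 genes were higher and 709 lower in SP2509 at a Benjamini-Hochberg adjusted p under 0.05. With the pairs averaged, 0 genes of any list or of the table passed (lowest adjusted p 0.0718 by limma, with 3632 genes at an unadjusted p under 0.05). Of the calls, 54.4% were higher under the deposited scaling, 69.1% under TMM rescaling, 38.6% under quantile normalisation and 17.1% when values were scaled to reads outside mitochondrial genes, which moved the median of all genes by -0.15 log2.

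The upstream sequences of Vegfa and Vegfb, the ligands with the highest levels per length, are shown because Vegfa was lower in SP2509 and Vegfb was not. They are the 250 bases before a RefSeq start (GRCm38.p6), each 5′ to 3′ on the gene's strand. For Vegfa the window is chr17:46032378-46032627 on the minus strand, and for Vegfb chr19:6987652-6987901 on the minus strand. Capitals mark the GC box GGGCGG, which Sp1 and Sp3 can bind, and the HIF core (ACGTG or GCGTG), read on both strands. Adjoining matches run together.
Vegfa: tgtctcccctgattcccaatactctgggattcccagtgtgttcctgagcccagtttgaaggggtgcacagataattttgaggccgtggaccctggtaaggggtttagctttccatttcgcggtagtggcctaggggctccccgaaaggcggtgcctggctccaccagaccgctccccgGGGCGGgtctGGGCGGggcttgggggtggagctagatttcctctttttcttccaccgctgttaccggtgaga
Vegfb: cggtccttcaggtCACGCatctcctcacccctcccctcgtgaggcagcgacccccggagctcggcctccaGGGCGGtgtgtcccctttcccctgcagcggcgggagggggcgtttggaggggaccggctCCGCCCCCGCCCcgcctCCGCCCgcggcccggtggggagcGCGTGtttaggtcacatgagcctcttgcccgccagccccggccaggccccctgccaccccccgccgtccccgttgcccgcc
The Vegfa window held 2 GC boxes, 72 and 62 bases before the start, and no HIF core. RefSeq has a second Vegfa window, at chr17:46025164-46025413 inside the gene, which is not printed. It held 2 HIF cores, 218 and 211 bases before its start, and 1 GC box. However, 0 GENCODE transcripts of Vegfa held the bases after this start near their own start, against 2 for the printed window. Lying inside the gene, this second window may hold exon sequence, and its matches are not read as upstream sites. The Vegfb window held 4 GC boxes and 2 HIF cores, the cores 237 and 81 bases before the start, and its GC content was 76.4% against 59.2% for Vegfa. Of 32851 mouse promoter windows of the same length, 32.7% held a GC box and 38.6% a HIF core, and the median GC content was 52.4%. These matches describe letters in these windows, and no binding was measured in these libraries. Whether they have a part in the differences between the groups was not tested, and the windows of the other members are not shown.

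Among the ligands, Vegfa and Vegfd were lower in SP2509, while Vegfb, Vegfc and Pgf overlapped between the groups. Vegfa (ENSMUSG00000023951, chromosome 17, 46016993 to 46032369, GRCm38) had 4205, 4315, 5505, 3940.2, 3808 and 9559.9 normalised reads in SP2509 replicates 1 to 6, against 13556, 12246, 13094 and 9857 in vehicle replicates 1 to 4. All SP2509 libraries lay below all vehicle libraries, though SP2509 replicate 6 came close to vehicle replicate 4. The means were 5799.8 ± 2602 normalised reads in SP2509 (SD, n = 4 units) and 12188.5 ± 1646 in vehicle (SD, n = 4), a ratio of 0.476. The fitted log2 fold change was -1.30 ± 0.25 (SE), on the log2(value + 1) scale that all fold changes here use, which understates the change of low genes. Unless stated, fold changes and SEs count all 10 libraries separately, the close pairs included, whereas means and SDs use the units. In bulk tissue, fewer cells of a type and less RNA per cell cannot be told apart. GENCODE lists 8 coding transcripts of Vegfa, whose splice forms differ in how they bind matrix and Nrp1, and gene-level counts cannot separate them.

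Vegfd (ENSMUSG00000031380, chromosome X, 164373378 to 164402650), a ligand of Flt4, was the other ligand whose groups did not overlap. It had 193 to 344 normalised reads in SP2509 libraries with a median of 293, against 488, 365, 524 and 491 in vehicle replicates 1 to 4. Its log2 fold change was -0.74 ± 0.18 (SE), and its means were 296 ± 59.2 in SP2509 (SD, n = 4 units) and 467 ± 69.6 in vehicle (SD, n = 4). Vegfc (ENSMUSG00000031520, chromosome 8, 54077606 to 54187096), the main growth factor of lymphatic vessels, had 76.0, 75.9, 73.3, 73.0, 69.8 and 143 normalised reads in SP2509 replicates 1 to 6, against 66.8, 73.7, 92.9 and 97.9 in vehicle. Replicates 1 to 5 of SP2509 lay within the vehicle range and replicate 6 above it. The fitted difference was 0.01 ± 0.23 (SE), and its sign turned to -0.14 with scaling to reads outside mitochondrial genes.

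Vegfb (ENSMUSG00000024962, chromosome 19, 6982473 to 6987651), a ligand of Flt1 that is abundant in heart and muscle, had 1213, 1234, 1197, 1343, 1487 and 3096 normalised reads in SP2509 replicates 1 to 6, against 916, 1479, 1264 and 836 in vehicle. Replicates 5 and 6 of SP2509 exceeded every vehicle library and the others overlapped them. The log2 fold change was 0.45 ± 0.26 (SE). Pgf (ENSMUSG00000004791, chromosome 12, 85166635 to 85177790), placental growth factor, had 50.3 to 75.2 normalised reads in SP2509 libraries with a median of 62.4, against 33.4, 70.6, 45.0 and 56.6 in vehicle. The groups overlapped, with a log2 fold change of 0.32 ± 0.24 (SE). Pgf was the member with the fewest reads, down to 18 whole reads in 1 library, so its values are the coarsest.

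**Figure D1:**
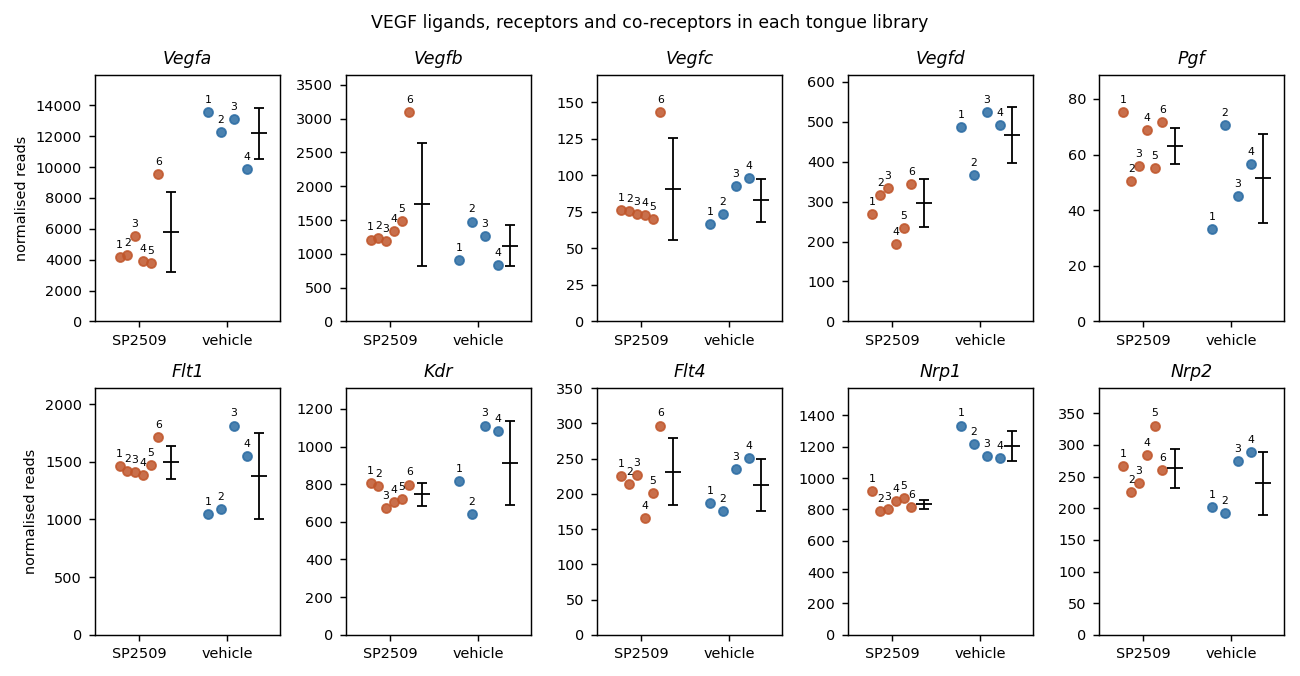
Normalised reads (vertical axes, linear, from 0) of the 10 VEGF family genes in 6 SP2509 libraries (left, orange) and 4 vehicle libraries (right, blue). Numbers are replicates, and black bars are the mean and SD over 4 SP2509 units and 4 vehicle libraries. Vegfa, Vegfd and Nrp1 are the panels in which the groups do not overlap, and SP2509 replicate 6 is the highest SP2509 library for Vegfa (9559.9), Vegfb (3096) and Vegfc (143).

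None of the 3 receptor kinases separated the groups. Flt1 (VEGFR1, ENSMUSG00000029648, chromosome 5, 147561604 to 147726011) had 1384 to 1712 normalised reads in SP2509 libraries with a median of 1441, against 1048, 1090.3, 1815 and 1549.8 in vehicle. All SP2509 libraries fell inside the vehicle range, and the log2 fold change was 0.14 ± 0.16 (SE), which turned to -0.01 with scaling to reads outside mitochondrial genes. Kdr (VEGFR2, ENSMUSG00000062960, chromosome 5, 75932827 to 75978458), the main signalling receptor of Vegfa, had 672 to 804 normalised reads in SP2509 libraries with a median of 757, against 819.6, 643, 1112 and 1081 in vehicle. Its groups overlapped through vehicle replicate 2, and the log2 fold change was -0.26 ± 0.15 (SE). Flt4 (VEGFR3, ENSMUSG00000020357, chromosome 11, 49609263 to 49652739) had 165 to 297 normalised reads in SP2509 libraries with a median of 219.7, against 187, 175, 235 and 251 in vehicle. The ranges overlapped, with a log2 fold change of 0.06 ± 0.17 (SE) that turned to -0.09 with scaling to reads outside mitochondrial genes and to -0.03 with quantile normalisation.

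The co-receptors differed from each other. Nrp1 (ENSMUSG00000025810, chromosome 8, 128358604 to 128503363) had 918, 789, 804, 853, 870.3 and 814 normalised reads in SP2509 replicates 1 to 6, against 1335, 1215, 1140.2 and 1126 in vehicle. All SP2509 libraries lay below all vehicle libraries, and the SP2509 values were tight. Means were 833 ± 28.6 in SP2509 (SD, n = 4 units) and 1204 ± 95.6 in vehicle (SD, n = 4), with a log2 fold change of -0.51 ± 0.09 (SE). Nrp2 (ENSMUSG00000025969, chromosome 1, 62703285 to 62818695), the co-receptor linked to Flt4 in lymphatic endothelium, had 226 to 331 normalised reads in SP2509 libraries with a median of 264, against 202, 192, 274 and 288 in vehicle. Its ranges overlapped, with a log2 fold change of 0.18 ± 0.16 (SE). The span of Nrp1 overlaps the microRNA gene Mir1903 on its own strand, and that of Nrp2 overlaps Gm37121 and the antisense gene Gm29083. These are overlaps of whole gene spans, introns included, and overlap of exons was not checked. The sources used here do not give the strand setting of the counting, so it is not known whether reads of these neighbours were counted with the members.

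In the limma fit over all 17088 genes, 3 of the 10 members were called lower and 0 higher, against 4.15% of all tested genes called lower and 4.95% called higher. The 3 were Nrp1, Vegfa and Vegfd, with limma adjusted p = 0.0133, 0.0137 and 0.0271, and the other 7 had adjusted p = 0.284 to 0.988. No member was higher at an unadjusted p under 0.05 or by edgeR or DESeq2. The same 3 were the members whose groups did not overlap, with SP2509 lower in all libraries, and 5.11% of all tested genes shared that separation. Nothing is read from these shares, because this contrast was known when the family was chosen. Each of the 3 was also called by edgeR and by DESeq2 on the recovered whole reads, and under TMM rescaling, quantile normalisation and scaling to reads outside mitochondrial genes. With the close pairs averaged the limma adjusted p was 0.0718 for Nrp1, 0.0792 for Vegfa and 0.0950 for Vegfd, so none was called. Their log2 differences were then -0.53 ± 0.11, -1.16 ± 0.28 and -0.67 ± 0.18 (SE). Without vehicle replicate 1 only Nrp1 was called, with Vegfa at adjusted p = 0.0537 and Vegfd at 0.0843. Without SP2509 replicates 4 and 5 the call also rested on Nrp1 alone, with Vegfa at adjusted p = 0.0580 and Vegfd at 0.0702. Vegfd missed the threshold too without vehicle replicate 3 or 4 and without SP2509 replicate 1 or 5, at adjusted p = 0.0548 to 0.0721.

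Levels can be compared between the genes only per length of exon. On this scale Vegfa was the most abundant member in both groups, at 1353 ± 607 normalised reads per kb in SP2509 (SD, n = 4 units) and 2844 ± 384 in vehicle (SD, n = 4). Vegfb was next, at 1080 ± 569 normalised reads per kb in SP2509 and 700.1 ± 188 in vehicle. In SP2509 the ranges of Vegfa and Vegfb overlapped, whereas in vehicle the lowest Vegfa level (2300.4 per kb) stood above the highest Vegfb level (921 per kb). Vegfd followed, at 123 per kb in SP2509 and 194 per kb in vehicle. In SP2509 it was followed by Flt1 at 111 per kb, which overlapped Vegfd, and by Nrp1 at 85.2 and Kdr at 82.6, which overlapped each other, and Nrp1 lay below the range of Flt1. In vehicle the order was Nrp1 at 123 per kb, Flt1 at 102 and Kdr at 101, where Nrp1 overlapped Flt1 and Flt1 overlapped Kdr. Vegfc, Flt4, Nrp2 and Pgf were the lowest in that order in both groups, at 21.7 to 37.1 per kb in SP2509 and 17.7 to 33.8 in vehicle, and neighbours among them overlapped in both.

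**Figure D2:**
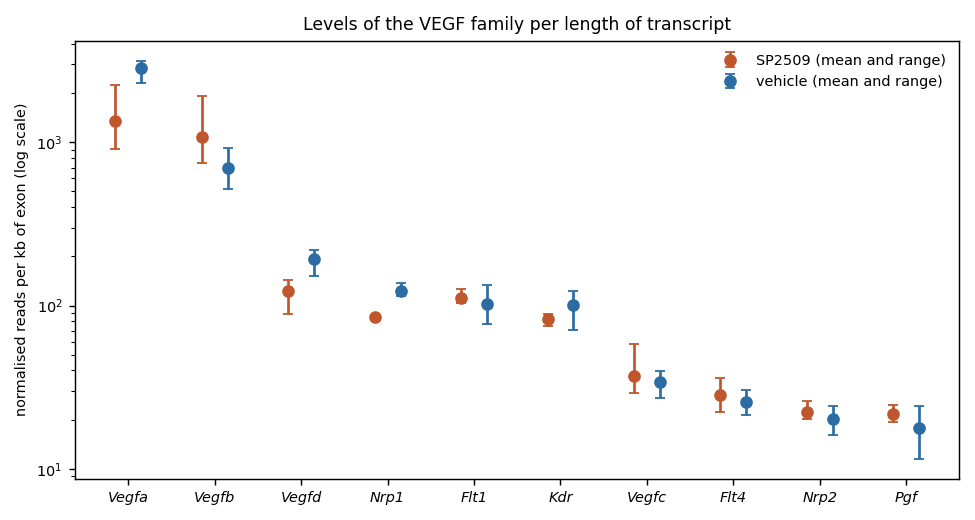
Normalised reads per kb of exon (vertical axis, log scale) of the 10 genes in order of their vehicle level, for SP2509 (orange, left of each pair, 4 units) and vehicle (blue, right, 4 libraries). Points are means and bars run from the lowest to the highest value. Vegfa and Vegfb overlap in SP2509 (1353 and 1080 per kb) and stand apart in vehicle (2844 and 700.1 per kb).

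The balance within the family does not depend on how libraries are scaled to each other. Vegfa made up 45.3% to 57.9% of the summed level per kb of the 5 ligands in SP2509 libraries, against 71.7% to 79.6% in vehicle libraries. Vegfb made up 33.6% to 47.3% in SP2509 libraries, against 14.4% to 23.1% in vehicle. Neither share overlapped between the groups, and SP2509 replicate 6, with 50.9% from Vegfa, lay inside the range of the other SP2509 libraries. Vegfa and Vegfb make up most of the summed level in every library, so their shares mirror each other and are not separate results. Vegfb reads alone overlapped between the groups. Of the pair of Flt4 ligands, Vegfd made up 71.0% to 82.2% in SP2509 libraries, against 83.5% to 88.1% in vehicle. The level of Flt1 over that of Kdr, per kb, was 1.20 to 1.43 in SP2509 libraries, against 0.855 to 1.13 in vehicle. These ratios also did not overlap, although neither receptor alone separated the groups. The ratios were computed after the values were seen and were given no test.

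**Figure D3:**
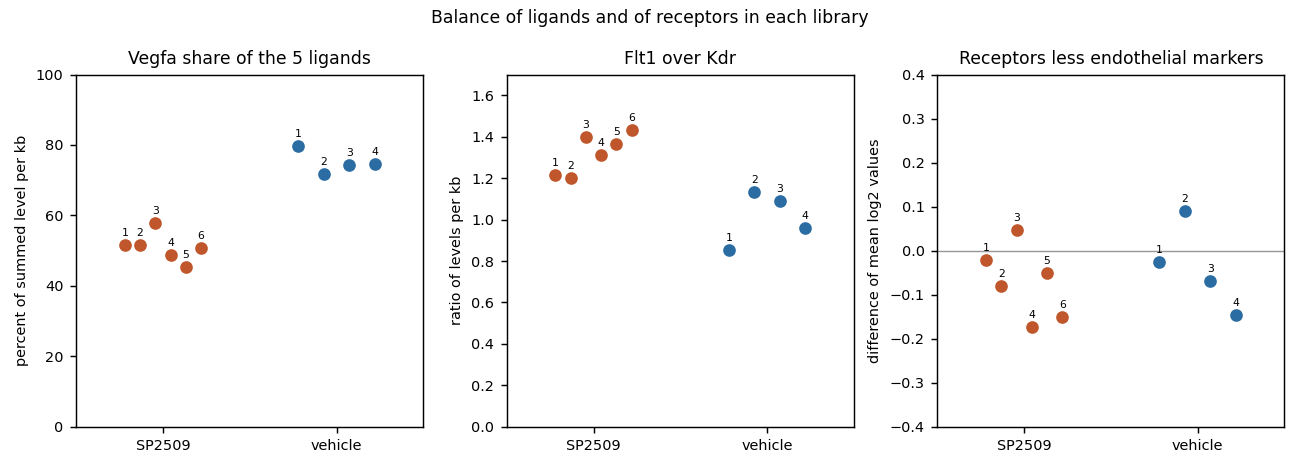
Share of Vegfa in the summed level per kb of the 5 ligands (left, percent), ratio of Flt1 to Kdr per kb (middle) and mean log2 value of Flt1, Kdr and Flt4 less that of 20 pan-endothelial markers (right), for each SP2509 library (orange, left in each panel) and vehicle library (blue, right). The Vegfa share is 45.3% to 57.9% in SP2509 and 71.7% to 79.6% in vehicle, and the right panel overlaps throughout.

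The receptors were read beside markers of the vessels that carry them. Mean log2 values of Flt1, Kdr and Flt4 less those of the 20 pan-endothelial markers ran from -0.17 to 0.05 in SP2509 libraries and from -0.15 to 0.09 in vehicle libraries. This mean overlapped between the groups, but it joins receptors whose differences had opposite signs. With the pan-endothelial mean as a covariate, the Kdr difference was -0.27 ± 0.09 (SE, limma adjusted p = 0.0764) and was not called. Those of Flt1 and Flt4 were then 0.13 ± 0.10 and 0.05 ± 0.13 (SE). Of 20 pan-endothelial markers 1 was called, a lower one: Egfl7, an endothelial secreted protein, at 1940.4 ± 184 normalised reads in SP2509 (SD, n = 4 units) and 3381 ± 644 in vehicle (SD, n = 4), log2 fold change -0.77 ± 0.14 (SE), limma adjusted p = 0.0136. Robo4, a guidance receptor that restrains VEGF signalling, and Cldn5, of endothelial tight junctions, had log2 differences of -0.52 and -0.40 and did not pass. Over the 20 markers, however, 12 had a positive difference and 8 a negative one, with a median of 0.07. At an unadjusted limma p under 0.05, 1 of them was higher and 5 were lower. Of 7 capillary markers 0 were called by limma, edgeR or DESeq2 and 1 was higher at an unadjusted p under 0.05, and Aqp1, Cd36 and Meox2 had positive differences of 0.47 to 0.63. Among 6 lymphatic markers, 1 was lower, the scavenger receptor gene Stab2 (-1.02 ± 0.28, limma adjusted p = 0.0444), while Lyve1, a hyaluronan receptor, had a difference of 1.12 at an adjusted p of 0.0991. Among 11 pericyte and vascular smooth muscle markers, 1 was lower, the pericyte gene Higd1b (-1.02 ± 0.22, limma adjusted p = 0.0194). Summed pan-endothelial levels were 15532 to 21022 normalised reads in SP2509 libraries and 13968 to 21552 in vehicle. No marker of these 4 lists was at 0 in all libraries. Over the 44 vascular markers together, 0 were higher by limma and 3 lower (4 and 10 at an unadjusted p under 0.05, 0 and 3 by edgeR, 0 and 5 by DESeq2), and the median log2 difference was 0.09, against 0.02 for all tested genes. Limma called 4.95% of all tested genes higher and 4.15% lower.

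For the genes downstream of the receptors, 9 of 38 were called, 7 higher and 2 lower, with a median log2 difference of 0.29 against 0.02 for all tested genes. The share called was 23.7%, where 4.95% of all tested genes were called higher and 4.15% lower. Rac1, a GTPase of cell migration, averaged 1756 ± 156 normalised reads in SP2509 (SD, n = 4 units) and 1072 ± 140.4 in vehicle (SD, n = 4), log2 fold change 0.72 ± 0.11 (SE). Grb2, an adaptor of receptor tyrosine kinases, had a log2 fold change of 0.46 ± 0.09 (SE). Akt1, Hspb1, Rcan1 and Map2k1 were also called higher. Nos3, the endothelial nitric oxide synthase that acts downstream of Kdr, was lower at 486 ± 64.0 normalised reads in SP2509 (SD, n = 4 units) and 723 ± 144 in vehicle (SD, n = 4), log2 fold change -0.57 ± 0.14 (SE). Pxn, the focal adhesion protein paxillin, was also lower (-0.79 ± 0.16). Most genes of this list are active in every cell type, so their levels are those of the whole tongue. Limma adjusted p ran from 0.0118 to 0.0449 over the 9, and no gene of the list was called with the pairs averaged.

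The neuropilins also serve semaphorin signalling, and 1 of the 13 semaphorin 3 and plexin genes was lower. This was Plxnd1, an endothelial plexin that binds Sema3e, at 1092 ± 181 normalised reads in SP2509 (SD, n = 4 units) and 1780.2 ± 191 in vehicle (SD, n = 4), log2 fold change -0.75 ± 0.13 (SE), limma adjusted p = 0.0126. Sema3f, a ligand of Nrp2, had a difference of -0.39, and Gipc1, which binds the tail of Nrp1, one of 0.43, and neither passed. Of the 6 angiopoietin and TIE genes 0 were called by limma, edgeR or DESeq2 and 2 were lower at an unadjusted p under 0.05, with Tie1 at -0.29, Svep1 at 0.75 and Angpt2 at -0.31. Among 16 Notch, ephrin and sprouting genes, 1 was lower, the apelin receptor gene Aplnr (-0.58 ± 0.15, limma adjusted p = 0.0348), and Notch4 had a difference of -0.41 that did not pass. Of 17 other angiogenic growth factors, 1 was higher, the matrix-associated factor Ccn2 (1.02 ± 0.28, limma adjusted p = 0.0415). Fgf2 had a difference of 0.42 and Angptl4 one of -0.88, and neither passed. Beside the counts of these lists, 4.95% of all tested genes were called higher by limma and 4.15% lower.

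Vegfc and Vegfd are made as precursors, and of the 5 tested maturation genes 1 was higher, the protease gene Ctsd (4694 ± 729 normalised reads in SP2509, 3035 ± 462 in vehicle, log2 fold change 0.58 ± 0.14, limma adjusted p = 0.0316). The convertase genes Furin and Pcsk5 had differences of 0.33 and 0.41 and did not pass. By limma 4.95% of all tested genes were called higher and 4.15% lower. Of 14 angiogenesis inhibitors, 0 were called by limma or edgeR, 1 was lower by DESeq2, and 4 had an unadjusted p under 0.05, 2 in each direction. Col15a1 had a difference of -0.65, Timp3, which blocks binding of VEGF to Kdr, one of 0.80, and Spry4, an inhibitor of receptor tyrosine kinase signalling, one of -0.65.

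Among other HIF targets, 8 of 30 tested entries were called, 7 higher and 1 lower, with a median of 0.22. Aldoa was listed under 2 identifiers. The share called was 26.7%, where 4.95% of all tested genes were called higher and 4.15% lower. Pgk1, a glycolytic kinase, averaged 2264 ± 911 normalised reads in SP2509 (SD, n = 4 units) and 826 ± 278 in vehicle (SD, n = 4), log2 fold change 1.37 ± 0.26 (SE), limma adjusted p = 0.0136. Ldha, lactate dehydrogenase, had a log2 fold change of 1.07 ± 0.21 (SE) at an adjusted p of 0.0149 by limma. Eno1, Mxi1, Ddit4, Tpi1 and Bnip3l were the other 5 called higher. Pfkfb4, a regulator of glycolysis, was lower, as was Vegfa, at 488 ± 144 normalised reads in SP2509 (SD, n = 4 units) and 988 ± 242 in vehicle (SD, n = 4), log2 fold change -1.06 ± 0.20 (SE), limma adjusted p = 0.0134. The glycolytic genes have processed copies elsewhere in the mouse genome, so their counts are uncertain where reads could be split. They are also highly expressed in skeletal muscle, whose summed markers are given with the tissue markers, and the part of muscle in them was not tested. Of the 10 HIF subunits and oxygen sensors 0 were called by limma, 1 was higher by edgeR, 3 were higher and 1 lower by DESeq2, and 4 were higher and 1 lower at an unadjusted p under 0.05, with Hif1a at 1.12 ± 0.34 and adjusted p = 0.0574, Arnt2 at -0.91 and Egln1 at 0.68. Among 15 factors known to act on Vegfa transcription or its mRNA, 1 was lower, the RNA-binding protein gene Hnrnpl (-0.44 ± 0.12, limma adjusted p = 0.0467). The GC box factors Sp1 and Sp3 had differences of 0.31 and 0.46 that did not pass. Kdm1a, which encodes the protein SP2509 inhibits, averaged 748 ± 92.3 normalised reads in SP2509 (SD, n = 4 units) and 737 ± 68.1 in vehicle (SD, n = 4), a log2 difference of 0.01 ± 0.12 (SE).

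**Figure D4:**
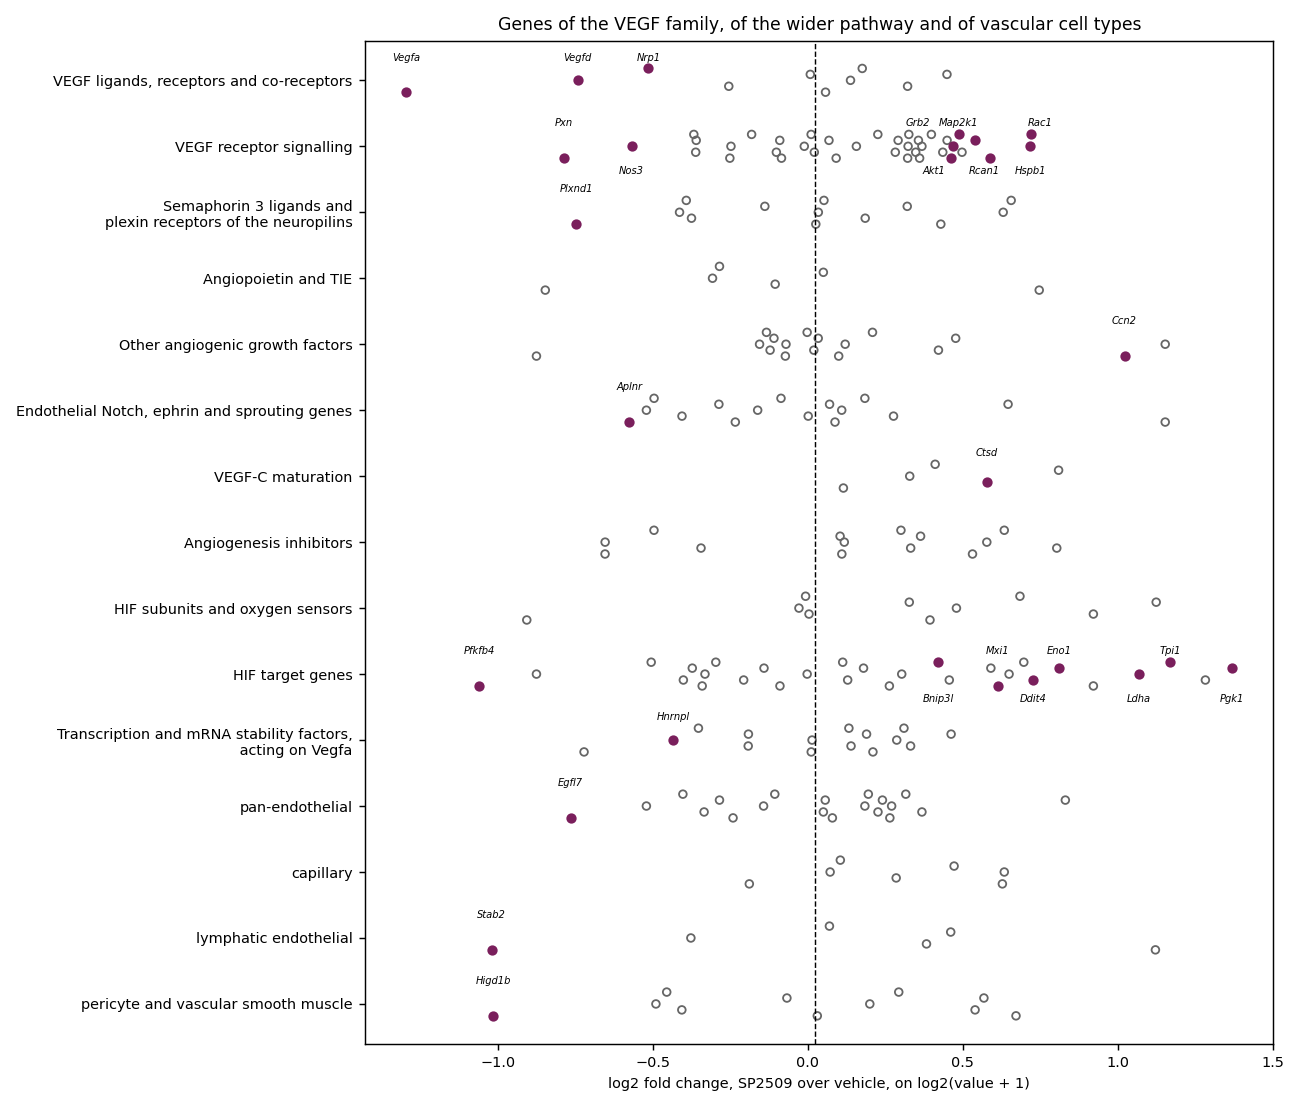
Log2 fold change of SP2509 over vehicle (horizontal axis) for each tested gene of the VEGF family, the wider pathway and 4 vascular marker lists. Filled points were called by limma at an adjusted p under 0.05 and are named where the text names them, open points were not called, vertical spread within a row only separates points, and the dashed line is the median of all 17088 tested genes (0.02). The called points of the family (Vegfa, Vegfd and Nrp1) lie to the left, and 7 of the 9 called points of receptor signalling lie to the right.

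Markers of other tissues of the tongue were read beside the members, and their part in the members' values was not tested beyond the covariate fits given here. Of 13 tested skeletal muscle markers 0 were called by limma or edgeR, 4 were higher by DESeq2, 7 were higher at an unadjusted p under 0.05 and 11 had a positive difference, with summed levels of 308836 to 909813 normalised reads in SP2509 libraries and 186563 to 379106 in vehicle. The highest of these was SP2509 replicate 6, with the other SP2509 libraries at 308836 to 395032. Of 14 keratinocyte markers 1, Krt17, was called higher by limma, 2 were by edgeR and 5 by DESeq2, and all 14 had a positive difference. Their summed levels were 76512 to 371560 in SP2509 libraries and 103998 to 145907 in vehicle, and SP2509 replicate 6 was the lowest. With the mean log2 level of muscle markers as a covariate, the Vegfa difference was -1.49 ± 0.26 (SE, limma adjusted p = 0.00995), and with that of keratinocyte markers it was -1.05 ± 0.24 (SE, limma adjusted p = 0.0176). Vegfb was at 0.89 ± 0.19 (SE) with the keratinocyte covariate, limma adjusted p = 0.0129, and was then called higher. With the muscle covariate it was at 0.02 ± 0.19 (SE), limma adjusted p = 0.947. Keratinocyte marker means were 12.4 to 13.7 in SP2509 replicates 1 to 5, 11.7 to 12.2 in vehicle libraries and 11.4 in SP2509 replicate 6. This covariate thus nearly followed the group but for replicate 6, which also had the highest Vegfb. The keratinocyte fits therefore cannot separate group from keratinocyte content, and replicate 6 weighs on the Vegfb call. Without replicate 6 and without a covariate, Vegfb was at 0.24, limma adjusted p = 0.302. Without SP2509 replicate 6 the Vegfa difference was -1.49 ± 0.13 (SE). Of 6 Schwann cell markers all had a negative difference, with 1 called lower by limma, 1 by edgeR and 3 by DESeq2 and 4 lower at an unadjusted p under 0.05, and their sums were 5257 to 11561 normalised reads in SP2509 libraries and 9361 to 19292 in vehicle. Among 9 fibroblast markers 1, Col3a1, was called lower by limma, with 6 positive and 3 negative differences. At an unadjusted limma p under 0.05, 4 fibroblast markers were higher and 2 lower, and DESeq2 called 2 higher and 1 lower. Among 8 macrophage markers 1, C1qb, was called higher by limma and 2 by DESeq2, with 7 positive differences and 1 negative. By limma or edgeR, 0 of 5 tested adipocyte and 0 of 5 tested gland markers were called. DESeq2 called 2 adipocyte and all 5 gland markers higher, and 2 and 0 had an unadjusted p under 0.05 by limma. Summed gland markers ran from 345 to 354103 normalised reads in SP2509 libraries (median 1564), against 426 to 943 in vehicle. Summed adipocyte markers ran from 90.8 to 1909 (median 232), against 47.6 to 200. Both thus spread widely among SP2509 libraries. Of all tested genes, limma called 4.95% higher and 4.15% lower.

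**Figure D5:**
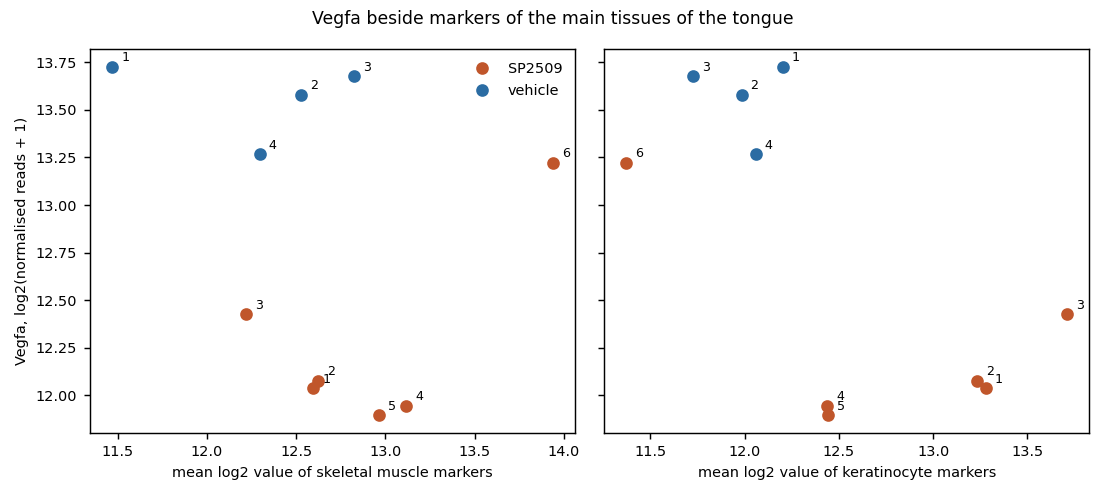
Vegfa as log2(normalised reads + 1) (vertical axis) against the mean log2 value of skeletal muscle markers (left) and of keratinocyte markers (right) in SP2509 libraries (orange) and vehicle libraries (blue), numbered by replicate. SP2509 replicate 6 has the highest muscle value (13.9), the lowest keratinocyte value (11.4) and the highest Vegfa of its group (13.2), and it lies below every vehicle library in Vegfa.

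The genes whose pattern was most like that of Vegfa over the 10 libraries, by Pearson r of log2 values, were Rmnd1 (r = 0.991), Phkg1 (0.981), Ice1 (0.978), Fam13a (0.975) and Idua (0.975). Deviations from the group means gave r = 0.901 to 0.976 for them. SP2509 replicate 6 weighs on these values, with log2 Vegfa at 13.2 against 11.9 to 12.4 in the other SP2509 libraries. Phkg1, a subunit of the muscle phosphorylase kinase, had 1575 to 3613 normalised reads in SP2509 libraries and 3715 to 5572 in vehicle. For Kdr the most alike were Pld1 (r = 0.970), Dock9 (0.953), Fli1 (0.939), Esam (0.928) and Tbkbp1 (0.907), with r = 0.887 to 0.960 for deviations from the group means. Esam, an endothelial adhesion molecule, is also 1 of the 20 pan-endothelial markers above. For both members the genes were picked by r over these same libraries, so a high r of deviations is partly built in. These libraries share depth and tissue makeup, and the values of r are a description.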

How the data were processed

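Poly-A RNA of 10 tongue samples was sequenced, per the labels' protocols. HISAT2, featureCounts and mm10 are named, without versions or roles, per the submitters' processing notes; the sources used here give neither annotation nor strand setting. The deposited values are a signal of read counts divided by 1 size factor per library, read from the values: 100% lay within 0.01 of whole reads. Each of the 27151 Ensembl identifiers was looked up in GENCODE M21 (GRCm38), and 27113 matched a symbol. Per kb values use summed exon length. Promoter windows are RefSeq's, with all 10 members matched in 12 windows.

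Differences were tested two-sided with limma 3.58.1 in R 4.3.3, using an intensity trend and robust moderation of log2(value + 1). The 17088 genes tested reached 10 normalised reads in 4 or more libraries, and p-values were Benjamini-Hochberg adjusted over all of them. edgeR 4.0.16 on the recovered whole reads, with its quasi-likelihood test, called 906 genes higher and 577 lower, and DESeq2 1.42.0 called 1618 and 1388. The limma fit alone was run on simulated libraries, drawn independently of each other. These held no close pairs and no outlying library, so they cannot show how the fit behaves with such libraries. One sequenced read equals 0.727 to 0.873 normalised reads in SP2509 and 0.898 to 1.85 in vehicle libraries. Replicate numbers did not pair the libraries: deviations of same-numbered libraries correlated at r = 0.126, 0.032, -0.198 and 0.125.

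The members and gene lists were chosen with earlier results of these data known. Beside the members, the rule named the 3 genes with the smallest p and a mean of at least 50 in each list, Kdm1a and the 5 genes most like Vegfa and Kdr. A few genes taken by this rule are left out of the text. Other called list genes (Pxn, Nos3, Akt1, Hspb1, Rcan1, Map2k1, Eno1, Mxi1, Ddit4, Tpi1, Bnip3l and Stab2) and the ligand and receptor ratios were chosen after their values were seen. Hgf, Adamts3, Plg and 5 tissue markers did not pass the filter. Alternatives were the pseudocount, filter, scaling, trend, tool, replicate block, pairs averaged, libraries left out, marker covariates, and, added after seeing the data, a GC and length correction. Python 3.11.15, pandas 2.3.3, NumPy 2.4.6 and matplotlib 3.10.9 made the tables and figures.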

Additional observations from a re-analysis of the deposited data

Results flagged for a closer look

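SP2509 replicate 6 stood far from the other SP2509 libraries in 4 members: 9560 normalised reads of Vegfa, 3096 of Vegfb, 143.2 of Vegfc and 1712 of Flt1. In each, its gap to the nearest library, as a share of the range of the group, was above Dixon's 95% critical value (0.705, 0.847, 0.916 and 0.731, against 0.625). Chance flags about 1 in 20 groups of independent values, and 20 groups were examined, 2 for each of the 10 members. The critical value counts the close pairs as separate libraries, which makes it too lenient if they are not. All 4 flags also fall on the same library, so this rate is only a rough guide. The library also had the highest skeletal muscle and the lowest keratinocyte marker sum of the SP2509 group, and their part in these values was not tested. Without it the log2 difference was -1.49 for Vegfa, 0.24 for Vegfb, -0.15 for Vegfc and 0.09 for Flt1.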

How the results depend on the processing

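Of 270 values of single members recomputed under alternatives, 242 kept their sign and side of the threshold, 11 lost the call, 1 gained it and 16 changed sign. Members called numbered 3, 0 with the pairs averaged, 1 without SP2509 replicates 4 and 5, and 1 to 3 with 1 library left out. Signs turned for Vegfc (-0.14 with scaling outside mitochondrial genes, -0.13 with the replicate block, -0.0050 with the endothelial covariate, -0.28 with the muscle covariate, -0.079 with GC and length correction, -0.15 to 0.093 with 1 library left out), for Flt1 (-0.013 with scaling outside mitochondrial genes, -0.027 with the muscle covariate) and for Flt4 (-0.093 with scaling outside mitochondrial genes, -0.032 with quantile normalisation, -0.025 with the replicate block, -0.053 with the muscle covariate, -0.032 to 0.14 with 1 library left out). The replicate block called 3 members, 1125 genes higher and 769 lower, and changed no other member's call. Genes called higher numbered 846, with 553 without a filter, 1288 with TMM, 297 outside mitochondrial genes, 490 without trend, 1618 with DESeq2, 0 with pairs averaged, 219 without SP2509 replicates 4 and 5, 1402 with the keratinocyte covariate and 171 to 1971 with 1 library left out. Genes called lower numbered 709, with 1442 outside mitochondrial genes, 1388 with DESeq2, 0 with pairs averaged, 156 without SP2509 replicates 4 and 5, and 107 to 1488 with 1 library left out. Genes of the other pathway lists called numbered 22, with 14 without trend, 36 with DESeq2, 0 with pairs averaged, 5 without SP2509 replicates 4 and 5, 44 with the keratinocyte covariate and 6 to 43 with 1 library left out. Vascular markers called numbered 3, with 5 outside mitochondrial genes, 5 with DESeq2, 0 with pairs averaged, 1 without SP2509 replicates 4 and 5, 9 with the endothelial and 9 with the keratinocyte covariate, and 1 to 6 with 1 library left out. For these 4 counts the lowest came without vehicle replicate 1 and the highest without SP2509 replicate 6. The cause was not tested. Low members such as Pgf are limited by depth.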
